A study of Mus musculus with 12 samples.

Results

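Mouse embryonic fibroblasts (MEF) served as the control cells of 2 separate manipulations of the kinase CK1α in this series, and those control cells are compared here with each other at baseline. The members are the 4 libraries labelled knockdown_control (2 libraries) and OV_control (2 libraries), out of 12 in the series, of which 8 are labelled MEF. Both labels give the cell line as MEF and the genotype as C57BL/6J, and neither names a change of CK1α. The knockdown controls accompany libraries in which CK1α was lowered by siRNA, and the overexpression controls (OV_control) accompany libraries labelled as CK1α overexpression. Total RNA was taken with Trizol and polyA+ RNA was sequenced, per the labels' protocols. The labels give no passage, immortalization, embryo, dose, time, control siRNA, empty vector or transfection, and do not say whether replicates were separate cultures. Culture, transfection, counting run and annotation all go with the set and cannot be told apart from it.

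MEF are the mixed, adherent mesenchymal cells that grow out of a minced embryo. They carry collagens, vimentin and platelet-derived growth factor receptors, keep traces of the body region they came from in their Hox genes, and stop dividing after some passages unless the p53 or Ink4a/Arf pathway is lost. Cells that sense nucleic acid in the cytosol through cGAS and STING, or through the RIG-I-like receptors, make type I interferon, and interferon then raises a broad set of antiviral genes. The unfolded protein response raises chaperones of the endoplasmic reticulum (ER) when folding there falls behind. Each of these can set the starting point against which a change of CK1α is read.

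The files of the 2 sets do not list the same features. Those of the overexpression set list 55401 Ensembl ids and those of the knockdown set 54532, and 54063 ids were kept, being in both and not mitochondrially encoded. The 4 libraries held 16063627 to 17843704 counts, with 98.6% to 99.9% of them on kept ids, and 21409 to 22753 kept genes had at least 1 count. Mitochondrial genes had 197016 and 232917 counts in the knockdown controls and none in the overexpression controls. Csnk1a1, which encodes CK1α (ENSMUSG00000024576, mm10 chromosome 18, 61555274 to 61590061, plus strand), had 357 and 386 counts-per-million (CPM, scaled here with TMM factors) in the knockdown controls and 222 and 217 CPM in the overexpression controls. Its log2 fold change, knockdown control minus overexpression control as in all values that follow, was 0.76 ± 0.05 (SE, n = 2 libraries per set, edgeR adjusted p = 5.63e-15), which did not pass the 2-fold test. The 2 control sets thus differed in the transcript of the kinase under study.

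The comparison was far broader than Csnk1a1. Of 15543 genes tested with edgeR, 13102 (84.3%) differed at an adjusted p of 0.05, 6624 of them higher and 6478 lower in the knockdown controls. Against a minimum change of 2-fold, 6976 genes passed (44.9%), 3694 higher (23.8%) and 3282 lower (21.1%), and this test stands behind every "higher" or "lower" count of list members below unless another is named. Members' counts are to be read against these shares. The median log2 fold change over all genes tested was 0.02, and scaling by library totals moved it to -0.20. Library totals also turned the balance of directions, with 5794 genes higher and 7321 lower, and 3239 higher and 3899 lower at 2-fold. Leaving out any 1 library left 6549 to 6827 genes past the 2-fold test. The scatter of mean levels shows both wings of the comparison.

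**Figure D1:**
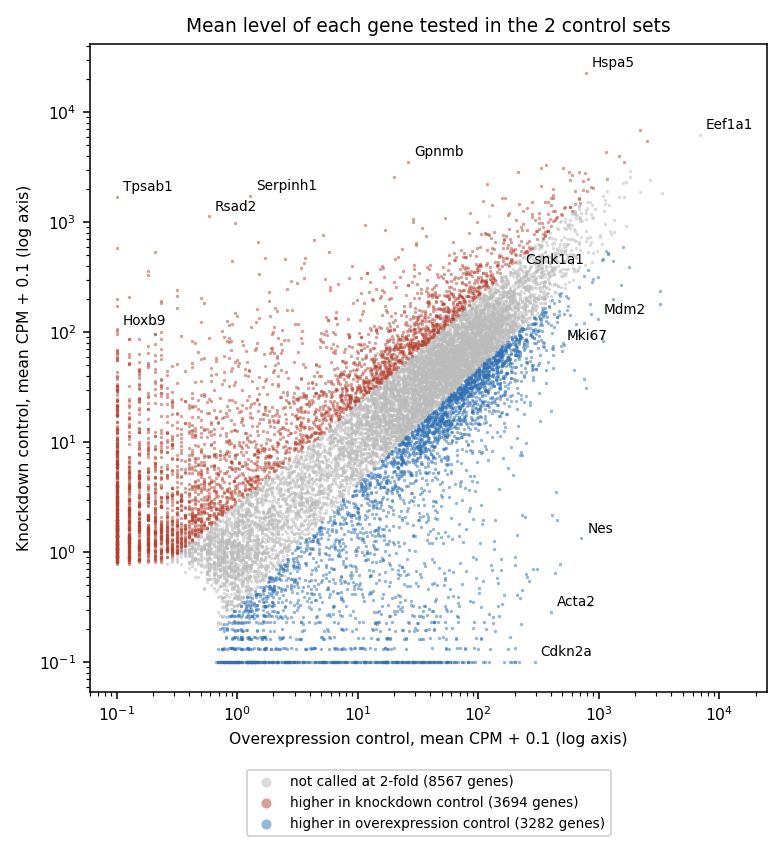
Each dot is 1 of 15543 genes tested, at its mean CPM plus 0.1 over the 2 overexpression controls (x, log axis) and the 2 knockdown controls (y, log axis), coloured by the 2-fold test. The 3694 genes higher in the knockdown controls and the 3282 higher in the overexpression controls fill both sides of the diagonal, and columns of dots at the lower edge of either axis are genes without counts in that set.

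Genes with an on-off pattern led the comparison. Tpsab1, a mast cell tryptase, had 1724 and 1657 CPM in the knockdown controls and no count in the overexpression controls, which makes it at least 20910-fold higher against a floor of 3 counts over both libraries. Sprr1a, a cornified envelope protein, had 587 and 573 CPM against none, at least 7178-fold higher. Serpinh1, the collagen chaperone HSP47, had 1773 and 1703 CPM against 1.02 and 1.35, and Gpnmb, a lysosomal glycoprotein, had 3560 and 3476 CPM against 26.4 and 25.9. In the other direction, Nes (nestin, an intermediate filament of progenitor cells) had 1.37 and 1.10 CPM in the knockdown controls against 717.2 and 717.0 in the overexpression controls. Thbs1 (thrombospondin 1) had 1.30 and 2.81 CPM against 406 and 408, and Myh10 (nonmuscle myosin IIB) had 3.49 and 3.42 against 446 and 442. These genes were chosen for the size of their change, so the separation of the 2 sets in them followed from the choice. Rps3a2 and Rps3a3, with 712 and 676 CPM and with 452 and 464 CPM in the knockdown controls against at most 5.06, resemble copies of a ribosomal protein gene, so their counts are uncertain.

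Several genes with no count in one set are widely expressed in cell lines. Trim44 had no count in the knockdown controls and 184 and 180 CPM in the overexpression controls, at least 1876-fold lower, and Ckap4, an ER membrane protein, had none against 203 and 198 CPM, at least 2068-fold lower. Mllt1, a subunit of transcription elongation complexes, had 1 count over both knockdown controls against 178 and 173 CPM. The knockdown files and those of the DMSO libraries of the series, which are labelled as TREX-knockout bone marrow-derived macrophages (BMDM), list the same ids. As CPM of the library total, the DMSO libraries held 156 and 152 for Trim44, 382 and 369 for Ckap4 and 159 and 154 for Mllt1, so these ids were countable in that annotation. Of 138 protein-coding genes at 10 CPM or more in the overexpression controls and without a count in the knockdown controls, 128 had at least 1 count in DMSO. Such counts could be few, as for Perp at 0.42 and 0.54 CPM of the library total. The reverse case held 60 protein-coding genes, of which 43 had at least 1 count in DMSO. No library outside the overexpression set shares that set's id list, so the same check could not be made outside that set. Within it, the CK1a_OV libraries had counts for Sprr1a (0.06 and 0.30 CPM of the library total). Tpsab1 and Hoxc10 had 0.06 CPM in 1 of these libraries each. Counts this few cannot show whether reads of these genes were assigned in full there. Efemp1 (a fibulin, 101 and 114 CPM against none) had no count in any library of the overexpression set, and whether its id could be counted there was not tested.

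The fibroblast label was checked against 24 fibroblast markers, of which 17 passed the filter on low counts. Of these 8 were higher (47.1%) and 7 lower (41.2%) in the knockdown controls, against 23.8% and 21.1% of all genes tested. Vim (vimentin) was high in every library, at 2936 and 2876 CPM in the knockdown controls and 1837 and 1818 in the overexpression controls, a log2 fold change of 0.67 ± 0.04 that did not pass the 2-fold test. Pdgfra, the receptor that marks embryonic mesenchyme, was higher in the knockdown controls at 52.7 and 53.5 CPM against 9.64 and 8.72, and Pdgfrb at 253 and 258 against 59.2 and 59.0. Fbln2 (fibulin 2) had 284 and 271 CPM against 3.02 and 3.01, and Ly6a (Sca-1, a surface marker of stromal progenitors) 77.3 and 82.4 against 3.28 and 3.39.

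Acta2, the smooth muscle actin of activated fibroblasts, had 0.07 and 0.31 CPM in the knockdown controls and 398 and 402 CPM in the overexpression controls. Cd34 had 0.75 and 0.61 CPM against 483 and 474, and Pdpn (podoplanin) had none against 124 and 122, at least 1269-fold lower. Neither set had the full marker list. Dcn and Lum (decorin and lumican, small leucine-rich proteoglycans of stroma) had no count in any of the 4 libraries, and Thy1, Fap, Postn, Fbln1 and Dpt stayed under 0.5 CPM in all 4. In bulk RNA, fewer cells of a type and less RNA of it per cell cannot be told apart.

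Transcription factors of the mesenchyme were more often lower in the knockdown controls than all genes tested. Of 66 listed, 49 were tested, with a median log2 fold change of -0.60. Of these 11 were higher (22.4%, near the 23.8% of all genes tested) and 20 lower (40.8%, against 21.1%). Twist1, which specifies mesenchyme and drives epithelial-mesenchymal transition, had no count in the knockdown controls and 27.9 and 29.8 CPM in the overexpression controls, at least 298-fold lower. Sox11 (none against 60.04 and 55.6 CPM), Foxd1 (none against 39.3 and 37.0) and Six2 (none against 32.6 and 35.8) followed the same pattern, as did Sox4 (none against 58.4 and 51.7), whose exons overlap another gene. Zeb1, a repressor of epithelial genes, had 0.21 and 0.18 CPM against 60.6 and 59.0. Its relative Zeb2 went the other way, at 129 and 147 CPM against 79.8 and 77.6, but did not pass the 2-fold test.

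Sox9, the master factor of cartilage, was higher in the knockdown controls with 359 and 360 CPM against 23.3 and 23.95, a log2 fold change of 3.93 ± 0.06. Snai1, another repressor of epithelial genes, had 24.4 and 23.8 CPM against 0.59 and 0.92. Hmga2, a chromatin protein of embryonic growth, had 624 and 659 CPM against 163 and 160.5. Of the members named, Twist1, Zeb1, Sox4, Sox11, Foxd1 and Six2 lay on the overexpression side. Sox9, Snai1 and Hmga2 lay on the knockdown side, as did Zeb2 without passing the 2-fold test.

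Hox genes, which record position along the body and limb axes, had their levels mainly in the knockdown controls. Of 39 listed, 25 were tested, 20 higher (80%) and none lower by the 2-fold test, against 23.8% and 21.1% of all genes tested. Their median log2 fold change was 9.20, or 7.21 with the 15 tested genes that had no count in one set placed at their bound. In the overexpression controls 24 of the 39 had no count, against 7 in the knockdown controls. The summed level was 467 and 471 CPM against 21 and 20.1. Hoxb9 had 100.4 and 105.3 CPM against none (at least 1276-fold higher), Hoxc10 65.6 and 59.6 against none, Hoxd8 32.2 and 32.7 against none, and Hoxa10 28.5 and 31.2 against none. The CK1a_OV libraries had no count for Hoxb9 or Hoxa10 either, so whether those ids could be counted in the overexpression files was not tested. Hoxa5 had the highest level of the family in the overexpression controls and was near equal between the sets, with 8.42 and 10.02 CPM in the knockdown controls and 12.01 and 13.1 in the overexpression controls, where it made up 61.2% of the Hox sum. The plot of Hox genes shows that the overexpression controls held counts mainly in the Hoxa cluster, with Hoxa6 at 3.88 and 3.61 CPM after Hoxa5.

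**Figure D2:**
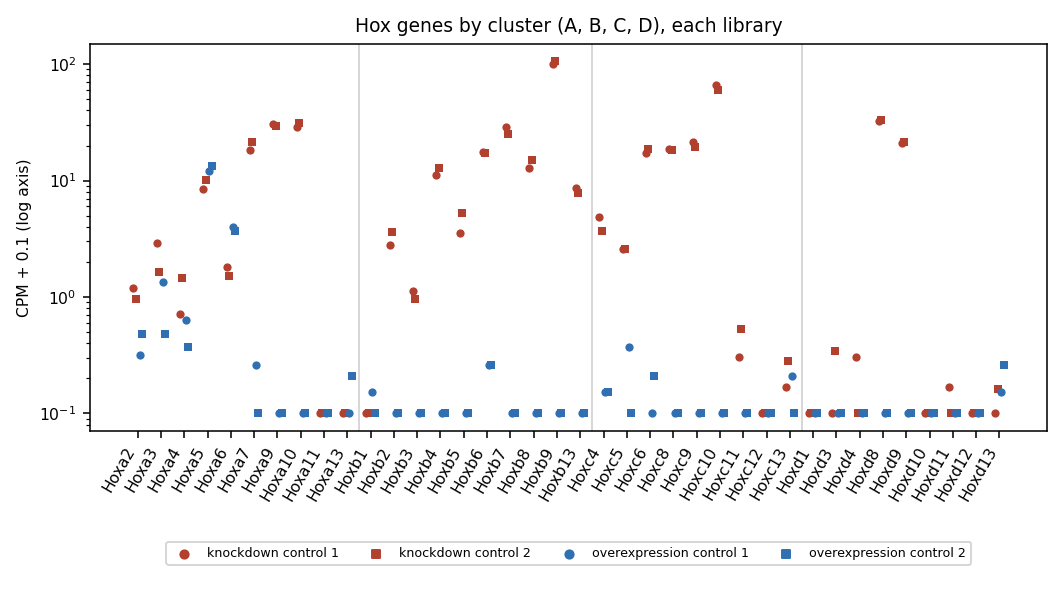
CPM plus 0.1 (log axis) of 38 Hox genes in cluster order in each of the 4 libraries, with knockdown controls in red and overexpression controls in blue. Red points reach 105 CPM at Hoxb9 while most blue points lie at the bottom, which stands for no count, except from Hoxa2 to Hoxa6.

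Sex-linked and imprinted genes also marked the sets apart, with none higher and 4 lower of 8 sex-linked genes tested and 6 higher and 3 lower of 12 imprinted ones. Kdm5d, a Y-linked histone demethylase, had no count in the knockdown controls and 17.6 and 17.9 CPM in the overexpression controls, at least 183-fold lower. Ddx3y (none against 54.0 and 54.5 CPM), Eif2s3y (none against 32.7 and 31.8) and Uty (none against 12.3 and 11.4) did the same. As CPM of the library total, the DMSO libraries held 21.8 and 20.8 for Kdm5d and 19.4 and 22.2 for Uty. They had no count for Ddx3y or Eif2s3y, so whether those ids could be counted in the knockdown files was not tested. Xist, the RNA that coats an inactive X chromosome, was at most 0.41 CPM in all 4 libraries. The knockdown controls thus had neither Y-linked transcripts nor Xist above that level. Their X-linked partners Ddx3x (248 and 270 against 485 and 495 CPM) and Eif2s3x (126 and 134 against 244 and 252) were lower, with log2 fold changes of -0.92 ± 0.05 and -0.93 ± 0.05 that did not pass the 2-fold test. Peg10, an imprinted gene of embryo and placenta, had none against 66.9 and 69.3 CPM, and its imprinted neighbour Sgce none against 15.8 and 19.3. Igf2, H19, Meg3 and Dlk1, imprinted genes of embryonic growth, had no count in either set.

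Markers of 9 other cell types were read in the same way, since an embryo-derived culture can hold them. Of 23 macrophage and myeloid markers 6 were tested, 5 higher and 1 lower in the knockdown controls, and the summed level was 307 and 297 CPM against 19.9 and 21.6. Cd68, a lysosomal protein used as a macrophage marker, gave 90.4% of that sum, with 277 and 268 CPM against 7.43 and 6.19. The defining markers Adgre1 (F4/80), C1qa, C1qb, C1qc and Ctss had no count in any of the 4 libraries, and Csf1r and Ptprc were at most 0.22 CPM. Trem2 (2.12 and 2.20 CPM against none) and Lyz2 (3.56 and 4.16 against 1.24 and 1.51) were low. As CPM of the library total, the same list summed to 283 and 276 in the knockdown controls and to 11.2 and 11.1 in the DMSO libraries labelled BMDM, which also lack these defining markers.

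Of 10 adipocyte markers 5 were tested, 4 higher and 1 lower. Fabp4, a fatty acid carrier of fat cells and macrophages, had 187 and 180 CPM against 0.11 and 0.16, Lpl (lipoprotein lipase) 288 and 297 against 2.32 and 3.12, and Pparg, the master factor of fat cells, 47.3 and 45.5 against 0.05 and 0.16. Adipoq and Cebpa, which mark mature fat cells, were at most 0.21 CPM in all 4. Neural markers stood on the other side, with 1 higher and 6 lower of 11 tested and a sum of 49.1 and 52.99 CPM against 976 and 963. Nes gave 73.9% of the latter sum, and Map2, a neuronal microtubule protein, had none against 82.8 and 80.3 CPM, at least 842-fold lower. The DMSO libraries had no count for Map2 either, so whether its id could be counted in the knockdown files was not tested. Epithelial markers had 2 higher and 2 lower of 6 tested. Grhl2, an epithelial transcription factor, was higher at 14.8 and 22.6 CPM against 5.65 and 5.06, and Cldn4 was higher at a low level, with 1.16 and 0.67 CPM against none and 0.05. Perp, a desmosome protein that p53 raises, gave 93.9% of the epithelial sum in the overexpression controls, with 214 and 218 CPM against none. Of the remaining lists, endothelial markers had 2 higher and 1 lower of 4 tested, muscle markers 2 and 1 of 7, and cartilage and bone markers 3 and 2 of 9. Of 14 lymphoid markers 1 was tested, the B cell receptor component Cd79a, and of 12 pluripotency markers 2 were tested, both lower. The part of such cells in the other differences was not tested.

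Interferon-stimulated genes were higher in the knockdown controls. Of 72 listed, 71 were tested, 46 higher and 6 lower (against 23.8% and 21.1% of all genes tested), with a median log2 fold change of 2.41, and their summed level was 9720 and 9835 CPM against 2398 and 2399. Ifit1, which blocks translation of foreign RNA, had 960 and 1039 CPM in the knockdown controls and 29.2 and 28.5 in the overexpression controls, a log2 fold change of 5.11 ± 0.06 (34.6-fold). Isg15, a ubiquitin-like modifier, had 408 and 400 CPM against 27.5 and 31.4 (13.7-fold). Rsad2 (viperin, an antiviral enzyme) had 1110 and 1149 CPM against 0.48 and 0.48, and Oasl1, which limits Irf7 translation, 974 and 927 against 10.98 and 11.9. The libraries of a set lay close together in these genes.

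The promoters of some of these genes are shown because they carry the element through which the interferon-activated factor ISGF3 and the IRF factors bind. Capitals mark each match to GAAA, any 2 bases and GAAA again, on either strand within the 250 bases before the start in RefSeq (GRCm38.p6), printed 5′ to 3′ on the gene's strand. Matches could overlap each other, as in Isg15.
Ifit1 (chr19:34640765-34640833, plus strand): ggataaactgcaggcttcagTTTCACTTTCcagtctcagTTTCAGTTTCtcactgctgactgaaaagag
Isg15 (chr4:156200855-156200916, minus strand): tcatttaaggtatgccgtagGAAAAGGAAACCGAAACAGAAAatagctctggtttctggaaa
Rsad2 (chr12:26456543-26456592, minus strand): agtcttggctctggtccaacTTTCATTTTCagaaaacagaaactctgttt
Cxcl10 (chr5:92349073-92349122, minus strand): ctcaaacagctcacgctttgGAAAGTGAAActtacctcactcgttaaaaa
Of all 27025 genes with such a promoter, 936 (3.46%) held a match. Among the interferon-stimulated genes 56 had a promoter and 23 (41.1%) a match. The share was 15 of 36 (41.7%) in members higher in the knockdown controls and 7 of 19 (36.8%) in the other tested members. A match is a description of the sequence and not a measured site.

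The 6 members lower in the knockdown controls included Eif2ak2 (PKR, the kinase that halts translation on double-stranded RNA), with 17.7 and 20.5 CPM against 138 and 138, and Parp12, with 1 count over both libraries against 25.6 and 24.1 CPM. Ifitm3, which blocks viral entry, was near equal at 404 and 384 CPM against 439 and 434 (log2 fold change -0.15 ± 0.04), so the list did not move as a block. Interferon-inducible GTPases had 11 of 15 tested higher and none lower, with Irgm1 at 214 and 225 CPM against 47.8 and 46.1 and Mx2 at 85.8 and 94.7 against 0.92 and 0.43.

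Interferons and the chemokines they drive were higher in 11 of 12 tested of 16 listed, with none lower by the 2-fold test and a median log2 fold change of 4.33 (4.12 with 3 genes at their bound). Ifnb1, the interferon that fibroblasts make first, had 13.7 and 16.1 CPM in the knockdown controls and 0.32 and 0.22 in the overexpression controls. Ifna4 had 57.8 and 57.6 CPM against none (at least 715-fold higher), although counts within the interferon alpha family can be shared between near-identical copies. Cxcl10, which attracts T cells, had 1416 and 1442 CPM against 132 and 130, and Ccl5 342 and 349 against 11.5 and 12.4. Cx3cl1 was the member below 0, at 77.3 and 77.3 CPM against 133 and 132, without passing the 2-fold test.

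Of the factors that relay interferon signals, 5 were higher and 2 lower of 20 tested, with a median of 0.48, and the higher share of 25% is near the 23.8% of all genes tested. Stat2, a subunit of ISGF3, was higher at 146 and 147 CPM against 9.85 and 11.5, as were Irf7 (29.98 and 29.5 against 10.02 and 7.75) and the feedback inhibitors Socs1 (95.1 and 95.5 against 6.30 and 6.35) and Usp18 (35.5 and 36.6 against 7.16 and 6.41). The receptor chain Ifngr1 was lower, at 14.4 and 15.3 CPM against 53.5 and 49.8.

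Of 29 nucleic acid sensing genes listed, 27 were tested, 6 higher and 7 lower (22.2% and 25.9%, near the 23.8% and 21.1% of all genes tested), with a median of 0.21 that was -0.00337 with library totals. Cgas, the DNA sensor of the pathway this series concerns, was lower in the knockdown controls, at 4.997 and 5.44 CPM against 45.4 and 46.8, a log2 fold change of -3.14 ± 0.12 (8.81-fold, edgeR adjusted p = 7.89e-17 in the 2-fold test). Its adaptor STING, named Tmem173 in this annotation, had 26.4 and 30.1 CPM against 24.2 and 24.6, a difference of 0.21 ± 0.10 that did not pass (adjusted p = 0.0516) and that was -0.00337 with library totals. Aim2, another DNA sensor, was higher at 76.9 and 88.1 CPM against 4.52 and 5.11, and Zbp1 at 15.2 and 10.1 against 0.54 and 0.48. Samhd1, which depletes nucleotides, was lower at 57.9 and 50.3 against 273 and 270, and Tlr3 at 1.37 and 0.98 against 13.9 and 13.0. Trex1, the nuclease that removes cytosolic DNA, had no count in any of the 4 libraries, and its exons lie wholly within those of another gene (100% of their length), where reads may not be assigned. In the knockdown controls a low Cgas level therefore stood beside high interferon-stimulated genes, and in the overexpression controls the reverse.

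Of 20 antigen presentation genes tested 13 were higher (65%) and 1 lower (5%), against 23.8% and 21.1% of all genes tested. H2-K1, a classical class I heavy chain, had 1161 and 1010 CPM against 55.1 and 50.5, though class I genes share near-identical copies, and Nlrc5, their transactivator, had 70.8 and 71.4 against 1.29 and 1.35. Inflammatory genes of the NF-kB type held both directions, with 15 higher (53.6%) and 4 lower (14.3%) of 28 tested. Il6 had 135 and 135 CPM against 1.62 and 1.24, and Lcn2, an iron-binding acute phase protein, 651 and 673 against 1.08 and 1.72. Ptgs2 (cyclooxygenase 2) went the other way with 0.48 and 0.73 CPM against 298 and 312.

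**Figure D3:**
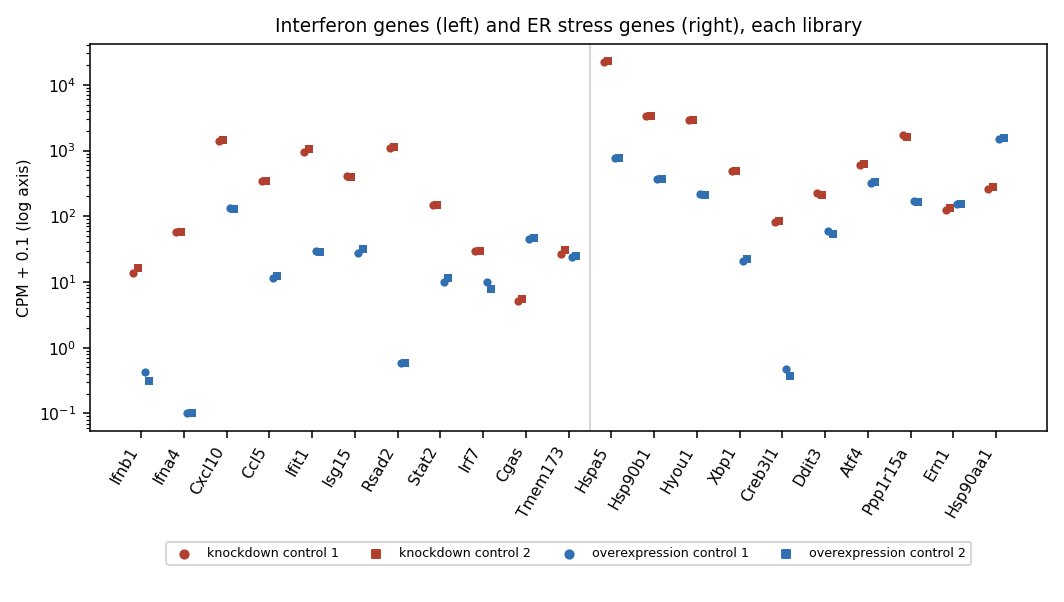
CPM plus 0.1 (log axis) of 11 interferon and sensing genes and 10 ER stress and heat shock genes in each of the 4 libraries, with knockdown controls in red and overexpression controls in blue. Cgas and Hsp90aa1 lie lower in red, Tmem173 and Ern1 lie close in both sets, and Hspa5 stands at 22463 and 22658 CPM in red against 777 and 777 in blue.

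The ER chaperones were higher in the knockdown controls almost throughout. All 27 listed were tested, 22 higher and none lower by the 2-fold test (against 23.8% and 21.1% of all genes tested), with a median log2 fold change of 2.17 and a sum of 48805 and 48575 CPM against 6504 and 6533. Hspa5, which encodes the chaperone BiP that also holds the stress sensors inactive (chromosome 2, 34771970 to 34777547, plus strand), had 22463 and 22658 CPM against 776.5 and 777.1, a log2 fold change of 4.86 ± 0.04 (29.0-fold). It gave 46.3% of the list's sum in the knockdown controls. As CPM of the library total, Hspa5 had 20713 and 21079 in the knockdown controls, 833 and 840 in the overexpression controls and 596 and 607 in the DMSO libraries.

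Hsp90b1 (GRP94, the ER member of the HSP90 family) had 3311 and 3308 CPM against 364 and 362. Hyou1, a nucleotide exchange factor of BiP, had 2867 and 2883 against 218 and 209, and Pdia4, a disulfide isomerase, 1662 and 1661 against 159 and 157. Creld2 (923 and 846 against 35.3 and 32.6 CPM), Sdf2l1 (647 and 602 against 29.99 and 30.3) and Fkbp11 (232 and 217 against 11.3 and 9.69) had the next folds after Hspa5 in the list. Canx (calnexin) was closer at 1068 and 1121 CPM against 687 and 689, and Hspa13 was below 0 at 49.97 and 51.96 against 76.5 and 79.4, neither past the 2-fold test. Genes of ER-associated degradation were higher in 12 of 23 tested and lower in none, with a median of 1.20. Among them were Herpud1 (331 and 338 against 46.1 and 44.6 CPM) and Syvn1 (418 and 434 against 54.9 and 58.8), the ligase that marks misfolded proteins.

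The promoters of 4 of these chaperone genes are shown with the ER stress response element, to which ATF6 binds together with NF-Y. Capitals mark matches to CCAAT, any 9 bases and CCACG, on either strand in the 250 bases before the RefSeq start, on the gene's strand, with the same build as above.
Hspa5 (chr2:34772020-34772048, plus strand): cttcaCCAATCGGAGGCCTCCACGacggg
Hsp90b1 (chr10:86705513-86705676, minus strand): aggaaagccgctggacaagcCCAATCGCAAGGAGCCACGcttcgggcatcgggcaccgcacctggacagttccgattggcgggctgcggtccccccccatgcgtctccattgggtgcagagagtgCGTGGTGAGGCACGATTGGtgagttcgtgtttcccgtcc
Creld2 (chr15:88819500-88819558, plus strand): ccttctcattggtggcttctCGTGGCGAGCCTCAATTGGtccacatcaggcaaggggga
Pdia6 (chr12:17266471-17266529, plus strand): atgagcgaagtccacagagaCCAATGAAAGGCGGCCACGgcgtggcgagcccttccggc
The match began 65 bases before the start in Hspa5, 126 in Creld2 and 98 in Pdia6. Only 35 of the 27025 promoters (0.130%) held the full element, among them 7 of the 20 chaperone genes with a promoter (35%). Of the chaperones higher in the knockdown controls 6 of 17 had it, and 1 of the 3 others. Pdia6, shown here, had 3189 and 2962 CPM against 325 and 333.

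The sensors and transcription factors of the unfolded protein response were higher in 8 (57.1%) and lower in 1 (7.14%) of 14 tested, with a median of 1.98. Of all genes tested, 23.8% were higher and 21.1% lower. Xbp1, whose mRNA is spliced by the sensor IRE1, had 485 and 487 CPM against 20.5 and 22.2 (22.8-fold), and Creb3l1, an ER-bound factor of secretory cells, 83.0 and 84.5 against 0.38 and 0.27. Atf6 had 413 and 415 CPM against 104 and 103, and Eif2ak3 (PERK) 112 and 114 against 28.6 and 25.3. Ern1, which encodes IRE1, had 126 and 134 CPM against 151 and 151, a log2 fold change of -0.22 ± 0.05. Gene counts do not show Xbp1 splicing.

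In the PERK and ATF4 branch members parted. Ddit3 (CHOP, a factor of stress-induced death) had 229 and 210 CPM against 59.4 and 53.2, a log2 fold change of 1.96 ± 0.06, and Ppp1r15a (GADD34, which restarts translation) 1734 and 1596 against 169 and 164. Atf4 itself had 612 and 619 CPM against 318 and 329, a difference of 0.93 ± 0.04 that did not pass the 2-fold test. Of 48 ATF4-related genes, all tested, 12 were higher (25%, near the 23.8% of all genes tested) and 6 lower (12.5%, against 21.1%). Their median was 0.28. Trib3 (259 and 246 against 37.4 and 37.9 CPM) and the amino acid transporter Slc7a3 (90.0 and 86.1 against 1.83 and 2.31) were higher. Ddit4, an inhibitor of mTORC1, was lower at 15.1 and 15.7 CPM against 322 and 328, as was the stress cytokine Gdf15 at 123 and 108 against 403 and 394.

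Of 23 heat shock genes of the cytosol tested 1 was higher (4.35%) and 6 lower (26.1%), with a median of -0.66. The lower share is near the 21.1% of all genes tested, while the higher share is under their 23.8%. Hsp90aa1, the inducible cytosolic HSP90, had 262 and 279 CPM against 1519 and 1525, a log2 fold change of -2.49 ± 0.04, and Hspb1 (HSP27) had 0.21 and 0.18 against 45.4 and 38.9. Cryab, a small heat shock protein of muscle and lens, had 0.75 and 0.79 CPM against 97.8 and 93.6. Hspa8, the constitutive HSC70, had 1056 and 1040 against 589 and 576, not past the 2-fold test. The plot of gene lists places the ER chaperone and interferon lists to the right of 0 and the cell cycle lists to the left.

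**Figure D4:**
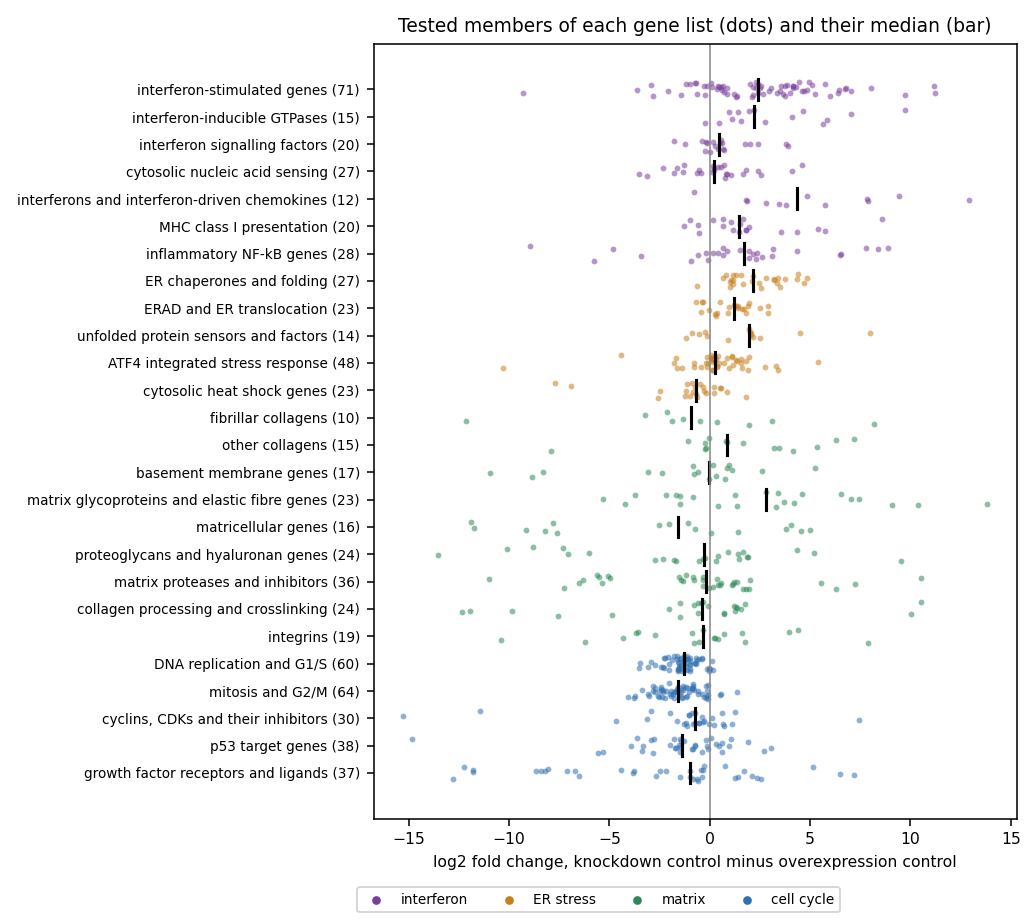
Log2 fold change (knockdown control minus overexpression control) of the tested members of each list of the interferon, ER stress, matrix and cell cycle themes, with 1 dot per gene, the number tested in brackets and a black bar at the median. The ER chaperone bar lies at 2.17 and that of mitosis and G2/M at -1.56, while the matrix lists spread to both sides.

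Every class of extracellular matrix genes held members in both directions. With 23.8% of all genes tested higher and 21.1% lower, such a split does not by itself set matrix genes apart. Of 10 fibrillar collagens tested 3 were higher (30%) and 4 lower (40%). The chains of collagen I parted, with Col1a1 at 232 and 219 CPM in the knockdown controls against 57.2 and 60.5 (log2 fold change 1.94 ± 0.06) and Col1a2 at 72.2 and 72.0 against 313 and 310 (-2.11 ± 0.05). Col3a1 was lower, at 9.04 and 8.19 CPM against 32.3 and 30.95, as was Col5a2 at 92.9 and 90.3 against 872 and 858. Col5a3, a further chain of collagen V, was higher at 484 and 451 against 1.40 and 1.83, and Col5a1 was near equal at 504 and 472 against 385 and 361. The chains of collagen I and those of collagen V thus each included 1 chain higher and 1 lower in the knockdown controls.

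Among other collagens 7 of 15 tested were higher (46.7%) and 2 lower (13.3%), against 23.8% and 21.1% of all genes tested. Col6a3 had 764 and 750 CPM against 4.79 and 5.38, while Col6a1 was lower at 165 and 162 against 344 and 347 and Col6a2 was close at 130 and 121 against 148 and 146. Col12a1, a collagen that sits on fibril surfaces, had 1.64 and 2.08 CPM against 457 and 435. Of 17 basement membrane genes tested 2 were higher (11.8%) and 5 lower (29.4%). Col18a1, the source of endostatin, had 1122 and 1035 CPM against 29.8 and 27.4, whereas the linker Nid1 had 0.48 and 0.73 against 289 and 282 and Nid2 0.27 and 0.24 against 86.5 and 83.8.

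Fn1 (fibronectin) was lower in the knockdown controls, at 399 and 383 CPM against 1810 and 1763, a log2 fold change of -2.19 ± 0.04 (4.57-fold). Across 23 glycoprotein and elastic fibre genes tested, of 32 listed, 12 were higher (52.2%) and 7 lower (30.4%). Of all genes tested, 23.8% were higher and 21.1% lower. Emilin2 had 455 and 428 CPM against 0.75 and 0.86, and Igfbp4, which binds insulin-like growth factors, 464 and 472 against 3.77 and 3.28. Of 16 matricellular genes tested 5 were higher (31.25%) and 9 lower (56.25%), with a median of -1.56. Ccn2 (CTGF, a target of YAP and TGF-β signalling) had 0.34 and 0.55 CPM against 265 and 261. Spp1 (osteopontin) was higher at 1542 and 1557 against 106 and 114. Ccn1, the relative of Ccn2, was nearer at 372 and 374 against 623 and 624 and did not pass the 2-fold test.

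Genes that process collagen were even in direction, with 8 higher (33.3%) and 8 lower (33.3%) of 24 tested. Lox, which crosslinks collagen and elastin, had 1 count over both knockdown controls against 209 and 196 CPM, and its relative Loxl2 had 6.91 and 8.13 against 219 and 222. P3h3, a prolyl hydroxylase, had 121 and 120 CPM against 0.05 and 0.16, and Serpinh1 belongs here with the values given above. Of 19 integrins and related receptors tested 4 were higher (21.1%) and 6 lower (31.6%), against 23.8% and 21.1% of all genes tested. Itgb1, the β1 chain shared by most receptors for collagen, laminin and fibronectin, had 38.4 and 36.6 CPM against 741 and 761, a log2 fold change of -4.33 ± 0.05 (20.05-fold), while Itgb7, a β chain of leukocytes, had 339 and 333 against 1.08 and 1.78. Proteoglycans had 7 higher (29.2%) and 10 lower (41.7%) of 24 tested. Matrix proteases with their inhibitors had 12 higher (33.3%) and 11 lower (30.6%) of 36. Vcan (versican) had 1.92 and 1.47 CPM against 107 and 108, and Srgn, the proteoglycan of secretory granules in blood cells, 47.0 and 42.7 against 0.05 and 0.05.

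Cell cycle genes were lower in the knockdown controls. All 60 genes of DNA replication and G1/S were tested, 38 lower and none higher by the 2-fold test (against 21.1% and 23.8% of all genes tested), with a median log2 fold change of -1.30. Of 64 genes of mitosis and G2/M, all tested, 43 were lower and 1 higher, with a median of -1.56. Mki67, the proliferation marker Ki-67, had 70.0 and 79.4 CPM against 490 and 482, a log2 fold change of -2.70 ± 0.05. Hells, a chromatin remodeller of S phase, had 28.1 and 27.4 CPM against 325 and 319, and Ttk, a checkpoint kinase of mitosis, 3.56 and 4.77 against 71.1 and 69.0. Pttg1 (securin) was the mitotic gene on the other side, at 47.9 and 44.7 CPM against 17.4 and 18.8.

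The lower level was not shared by all members. Rrm2, a subunit of ribonucleotide reductase, had 426 and 443 CPM against 437 and 439, a log2 fold change of -0.01 ± 0.04, and its sign turned under 6 alternatives. Top2a (183 and 185 against 350 and 332 CPM) and Racgap1 (256 and 262 against 296 and 288) were lower without passing the 2-fold test. As CPM of the library total, the G1/S list summed to 3266 and 3279 in the knockdown controls, 9352 and 9293 in the overexpression controls and 8898 and 8920 in the DMSO libraries. The G2/M list gave 3030 and 3114, 8839 and 8869, and 11497 and 11658 in the same order. These sums place the knockdown controls lowest of the 3 groups on both lists.

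Among the brakes of the cell cycle, genes of the Ink4a/Arf locus had an on-off pattern. Cdkn2a, which encodes the CDK4/6 inhibitor p16Ink4a and the p53 activator p19Arf (chromosome 4, 89274471 to 89294653, minus strand), had no count in the knockdown controls and 294 and 295 CPM in the overexpression controls, at least 3039-fold lower. Its neighbour Cdkn2b (p15Ink4b, 89306299 to 89311039) had none against 21.5 and 19.6 CPM, at least 213-fold lower. Mtap, a methionine salvage enzyme at 89137122 to 89181081 on the same chromosome, had 8.69 and 10.7 CPM against 247 and 254, a log2 fold change of -4.68 ± 0.08. In the DMSO libraries, which list the same ids as the knockdown files, Cdkn2a had 362 and 344, Cdkn2b 26.0 and 29.0 and Mtap 207 and 211 CPM of the library total. All 3 genes of the locus were thus low in the knockdown controls and counted in both other groups.

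Trp53, which encodes p53, had 251 and 253 CPM against 372 and 354, a log2 fold change of -0.53 ± 0.05. Of 41 p53 target genes 38 were tested, 3 higher (7.89%) and 20 lower (52.6%), with a median of -1.36. Of all genes tested, 23.8% were higher and 21.1% lower. Mdm2, the ligase that degrades p53 and is itself its target, had 128 and 133 CPM against 978 and 988, a log2 fold change of -2.91 ± 0.05 (7.53-fold), and Ccng1 (cyclin G1) 95.9 and 93.2 against 655 and 668. Cdkn1a, the CDK inhibitor p21, was nearer at 381 and 360 CPM against 677 and 659 and did not pass the 2-fold test. Bbc3 (PUMA), Gadd45a and Ddb2 were the 3 higher members, with Bbc3 at 229 and 217 CPM against 59.98 and 59.2 and Gadd45a at 166 and 146 against 24.3 and 23.7. The knockdown controls therefore had lower levels of most proliferation genes and of 20 of the 38 p53 target genes tested.

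**Figure D5:**
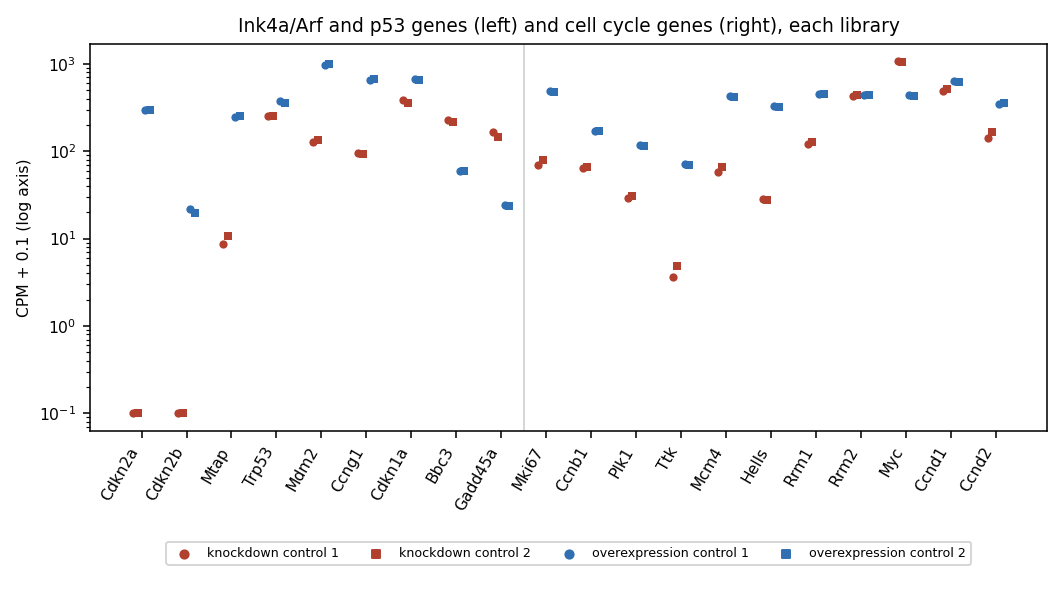
CPM plus 0.1 (log axis) of 9 genes of the Ink4a/Arf locus and p53 pathway and 11 cell cycle genes in each of the 4 libraries, with knockdown controls in red and overexpression controls in blue. Cdkn2a and Cdkn2b lie at the bottom in red, which stands for no count, Rrm2 overlaps between the sets, and Bbc3, Gadd45a and Myc lie higher in red.

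Among cyclins, CDKs and their inhibitors 2 of 30 tested were higher (6.67%) and 9 lower (30%), against 23.8% and 21.1% of all genes tested. Myc was higher at 1064 and 1041 CPM against 440 and 431, and Cdkn1c was the other, at 1.30 and 1.22 against none. Ccnd1 (cyclin D1) was close, at 483 and 509 against 639 and 624. Growth factor receptors and ligands were higher in 9 (24.3%, near the share of all genes tested) and lower in 18 (48.6%) of 37 tested. Egfr (none against 34.1 and 37.6 CPM, at least 370-fold lower), Fgfr2 (none against 55.03 and 50.2) and the ligands Pdgfc (none against 25.95 and 26.1) and Bmp4 (none against 25.2 and 26.7) were without counts in the knockdown controls. Fgfr1 was present in both, at 270 and 274 against 430 and 426.

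Genes often used as references passed the 2-fold test less often than all genes tested, but some differed. Of 28 tested 4 were higher (14.3%) and 1 lower (3.57%), against 23.8% and 21.1% of all genes tested. Their median log2 fold change was 0.33. Actb had 6934 and 6952 CPM against 2218 and 2223, B2m, which is also an interferon-stimulated gene, 1431 and 1433 against 405 and 400, and Gapdh 90.3 and 88.4 against 10.1 and 11.1. Gapdh has many processed copies in the genome, so its counts are uncertain. Eef1a1 (6071 and 6256 against 6982 and 6901 CPM) and Eef2 (2504 and 2378 against 2691 and 2631) were the closest of those named.

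The treated libraries that accompany the 2 sets are labelled MEF as well, and share no library with the controls. CK1a_siRNA minus CK1a_OV gave 6572 genes past the 2-fold test of 15214 tested (43.2%), 3390 higher (22.3%) and 3182 lower (20.9%), and 84.7% of genes differed at any size. Of 14779 genes tested in both comparisons, 5245 passed in the same direction and 5 in opposite directions. Among these genes tested in both, the shared calls were 81.0% of the 6476 between the controls and 82.8% of the 6331 between the treated libraries. The treated libraries also differ in CK1α by label, so their difference is not a repeat of the baseline alone.

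Some named genes had like values in both comparisons. Cdkn2a was -15.29 in each, where the fitted value of a gene with no count depends on the prior count, Itgb1 was -4.33 between controls and -4.28 between treated libraries, Fn1 -2.19 and -2.27, and Xbp1 4.51 and 4.25. Other genes parted. Of identity and matrix genes, Ly6a was 4.58 between the controls and 7.01 between the treated libraries, Pdgfra 2.53 and 1.43, and Ccn1 -0.74 and -2.89. Cgas was -3.14 and -0.97, and Eif2ak2 -2.85 and 0.14. Ddit3 was 1.96 and -0.20, Herpud1 2.88 and 0.05 and Ppp1r15a 3.32 and 0.29. Csnk1a1 itself was 0.76 and -0.23. The difference between the comparisons was not tested.

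By chromosome, the median log2 fold change ran from -0.80 on chromosome 8 (830 genes tested, 37.7% lower and 13.1% higher) and -0.70 on X (456 genes) to 0.41 on chromosomes 5 and 15. Within chromosome 15, which leaned higher as a whole, the 15 neighbouring genes from Eif3h to Has2 (mm10, 51786558 to 56694539) had a median of -3.77 and 14 of them were lower. Eif3h, a subunit of a translation initiation factor, had 235 and 238 CPM in the knockdown controls and 3232 and 3208 in the overexpression controls, and Rad21, a cohesin subunit, 173 and 190 against 3238 and 3204. Taf2, Ext1 and Dscc1 followed, with log2 fold changes of -4.67 ± 0.06, -3.60 ± 0.05 and -4.51 ± 0.08. Among windows of 15 neighbouring genes at a mean of 5 CPM or more, 4 overlapping windows of this stretch shared this median, the farthest from 0 in either direction, and the one with the most lower genes was chosen after its values were seen.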

How the data were processed

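HISAT2, featureCounts and mm10 are named in the submitters' processing notes. The authors deposited whole-number, unscaled counts for each Ensembl id. No source used here gives tool versions, the annotation or the strand setting. Symbols and positions are from GENCODE M21 (mm10), promoters from RefSeq (GRCm38.p6). Ids in both file sets were kept, mitochondrial ones left out, and the 4 control libraries fitted with the quasi-likelihood test of edgeR 4.0.16 in R 4.3.3 (filterByExpr, TMM, robust, no block), with Benjamini-Hochberg adjustment at 0.05. The 2-fold test is glmTreat on that fit. The SE is the absolute log2 fold change divided by the square root of F, which is too small for large changes from few counts. The spread was estimated from 2 residual degrees of freedom per gene, moderated across genes, and an exact permutation of 2 against 2 libraries cannot go below 0.333. The procedure was tested on simulated data in which few genes changed, equally in both directions. It was not tested on data in which most genes differ, as they do here. Levels compared with the DMSO libraries are CPM of the library total.

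Members, tests and the 41 gene lists were chosen with earlier results of these data known, so lists are described without a test. Named genes are a fixed panel, the 8 largest changes per direction (at least 10 CPM in the higher and 1 CPM in the lower set), the 8 highest genes per direction with at most 3 counts in the other set, and per list up to 4 of the largest changes and 2 of the highest members not past the 2-fold test. Genes named beyond this were chosen after their values were seen. Replicates differed by more than sampling noise (chi-square per degree of freedom 2.45 and 3.57). Because nothing says that replicates were separate cultures, each p reflects only how far these libraries differ, possibly technically. Alternatives were library totals in place of TMM, RLE factors, limma-voom (limma 3.58.1), DESeq2 1.42.0, other filters, other sets of libraries, a replicate block, leaving out each library, protein-coding genes without shared exons, and no genes at 0 in one set. Those for the treated comparison were chosen after seeing the data. Results for some genes are not reported here.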

Additional observations from a re-analysis of the deposited data

How the results depend on the processing

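Counts of genes past either test stayed within 1.5 times the main count under every alternative run except that of protein-coding genes without shared exons, which tests fewer genes (8156 in place of 15543) and gave 7192 genes (3592 higher and 3600 lower), and 3797 at 2-fold (2005 higher and 1792 lower). DESeq2 gave 12017 and 5375 genes. Leaving out 1 library gave 12587 to 12745 genes (6251 to 6530 higher, 6184 to 6373 lower), 6549 to 6827 at 2-fold (3370 to 3712 higher, 3115 to 3179 lower), and 6069 to 6458 at 2-fold between the treated libraries. The replicate numbers do not pair the libraries, whose deviations correlated at 0.03 over 11714 genes. With the replicate number as a block, 12918 genes passed (6524 higher, 6394 lower), 6857 of them at 2-fold (3614 higher, 3243 lower), 6439 did so between the treated libraries, and none of the 245 named genes changed its call or sign. Among named genes, signs turned only in 4 near 0. Library totals gave -0.00337 for Tmem173, -0.15 for Smtn and -0.13 for Thbs2. Leaving out 1 library gave -0.0270 to 0.109 for Smtn, lowest without overexpression control 2, -0.00896 to 0.177 for Thbs2, lowest without knockdown control 2, and -0.0421 to 0.0273 for Rrm2, highest without knockdown control 1. Rrm2 turned to 0.00092 with RLE factors, 0.00094 with DESeq2, 0.0152 with a filter of 1 CPM, 0.0202 with all 12 libraries and 0.0709 with protein-coding genes without shared exons. The cause was not tested. The median of 5 lists near 0 changed sign under at least 1 alternative, among them nucleic acid sensing with library totals.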
